A study of Arabidopsis thaliana with 12 samples.

Results

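The 8 genes for CIN-type TCP transcription factors of Arabidopsis thaliana were examined for binding of SOB3 (SUPPRESSOR OF PHYTOCHROME B-4 #3), an AT-hook protein that restrains growth of the hypocotyl. They are TCP2 (AT4G18390), TCP3 (AT1G53230), TCP4 (AT3G15030), TCP10 (AT2G31070), TCP24 (AT1G30210), TCP5 (AT5G60970), TCP13 (AT3G02150) and TCP17 (AT5G08070), taken from the 27444 nuclear protein-coding genes of the annotation. A peak belonged to a member when it overlapped, by at least 1 bp, the gene body, the 2000 bp upstream of it or the 1000 bp downstream of it. All seedlings were of the Columbia ecotype and carried SOB3 fused to GFP, driven by the SOB3 promoter, in the sob3-4 mutant background. They grew at 22 °C with 8 h of light and 16 h of darkness a day, and whole plants were taken at ZT4 (5 days old, 4 h after dawn), at ZT9 (5 days old, 1 h after lights off) or at ZT24 (6 days old, the following dawn, also labelled ZT0). Each time point had 3 ChIP replicates, precipitated with an antibody to GFP, and 1 input library, and the 9 ChIP samples gave a peak list each. The promoter of SOB3 sets which cells hold the fusion, and in chromatin from whole seedlings a site bound in few cells cannot be told apart from a site bound weakly in many. No sample of plants without GFP was analysed here.

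TCP proteins bind DNA through a non-canonical basic helix-loop-helix domain that is particular to plants. The CIN type, named after CINCINNATA of snapdragon, belongs to class II of the family and moves leaf cells from division to differentiation, so that leaves with less of it grow crinkled margins. The transcripts of TCP2, TCP3, TCP4, TCP10 and TCP24 carry a site for the microRNA miR319, which cleaves them, while those of TCP5, TCP13 and TCP17 carry none. In seedlings, TCP4 activates the auxin biosynthesis gene YUC5 and promotes elongation of the hypocotyl, and TCP5, TCP13 and TCP17 work with PIF4 in growth at warm temperature. SOB3 and related AT-hook proteins bind AT-rich DNA and can form complexes with TCP proteins, which bind motifs such as GGNCCA.

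The sequences around the summit of 4 member sites are given first because they hold the motif arrangements described later: a strong site with AT-rich matches on its summit (TCP3), the only 2 member sites with paired copies of TGGNCCA (TCP5 and TCP17), and a site with paired copies of CACGTG (TCP2). Each is 231 bp of the TAIR10 reference with the median summit in the middle, written 5′ to 3′ on the strand of the gene and credited to the RefSeq record of the same build. Capitals mark matches to 3 motifs searched on both strands: the TCP-like motif GGNCCA with A, C or T at N, the PIF-like motif CACNNG with A or G and then C or T at the N positions, and the AT-rich motif ANATAANA with A or T at each N. The first is chr1:19851885-19852115 on the minus strand, the second chr5:24537929-24538159 on the minus strand, the third chr5:2583493-2583723 on the plus strand and the fourth chr4:10167296-10167526 on the minus strand.
TCP3, 275 bp upstream: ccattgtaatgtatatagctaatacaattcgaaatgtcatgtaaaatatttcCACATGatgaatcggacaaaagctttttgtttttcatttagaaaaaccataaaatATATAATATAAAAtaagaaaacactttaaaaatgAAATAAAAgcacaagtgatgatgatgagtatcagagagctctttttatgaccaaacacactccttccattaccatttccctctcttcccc
TCP5, 800 bp upstream: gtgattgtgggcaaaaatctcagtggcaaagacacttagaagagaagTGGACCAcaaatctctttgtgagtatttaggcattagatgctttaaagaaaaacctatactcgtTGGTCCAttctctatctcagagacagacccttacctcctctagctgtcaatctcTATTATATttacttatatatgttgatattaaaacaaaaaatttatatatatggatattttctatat
TCP17, 750 bp upstream: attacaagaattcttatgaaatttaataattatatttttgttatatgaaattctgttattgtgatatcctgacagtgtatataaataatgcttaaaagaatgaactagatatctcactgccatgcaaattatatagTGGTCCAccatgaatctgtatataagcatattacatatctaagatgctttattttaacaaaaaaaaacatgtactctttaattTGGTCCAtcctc
TCP2, 1828 bp upstream: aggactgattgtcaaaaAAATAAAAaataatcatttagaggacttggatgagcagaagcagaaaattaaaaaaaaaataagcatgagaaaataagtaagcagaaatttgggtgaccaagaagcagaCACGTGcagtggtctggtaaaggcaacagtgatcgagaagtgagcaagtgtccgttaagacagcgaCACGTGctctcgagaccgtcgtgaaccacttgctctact

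The 9 lists held 20988 to 24850 peaks each, with a median fold enrichment (pileup of ChIP fragments at the summit over the local background, as MACS2 gives it) of 2.55 to 2.90. The genome-wide background recovered from the lists, the only measure of depth they allow, was 12.1 to 15.8 fragments per base. Within a list, the strength of a peak is given below as its percentile, its rank by fold enrichment among the nuclear peaks of that list, where 100 is the strongest.

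Every member had a peak in its window in all 9 lists (8 of 8), where 52.4% of all protein-coding genes did. All 8 were also bound in at least 2 of 3 replicates at each of the 3 time points, against 61.3% of all genes, and 20.3% of all genes had no peak in any list. In total 187 peaks fell in the member windows. Merged where they overlapped, they formed 22 sites, of which 16 were present in all 9 lists (72.7%, against 46.8% of the 28285 sites of the genome). The other 6 sites were present in 1 to 7 lists. When only peaks with a −log10 q of at least 10 were kept, 5 members still had a peak in all 9 lists. TCP4 then had one in 8 lists, TCP24 in 4 and TCP17 in 3. TCP24, a miR319 target, and TCP17, which is none, thus had the members' weakest binding. The share of all genes with a peak in all 9 lists at that threshold was not computed.

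**Figure D1:**
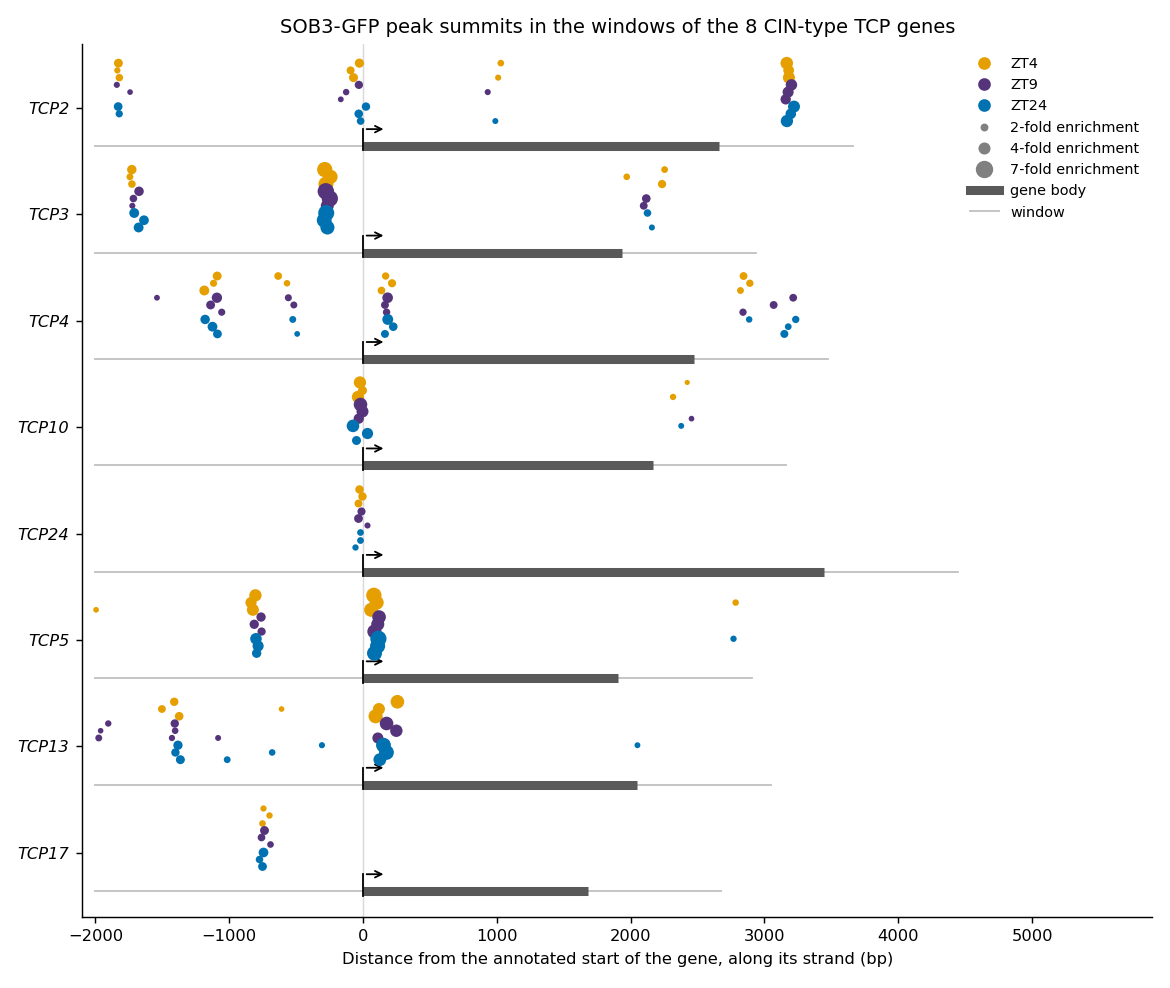
Summits of SOB3-GFP peaks inside the window of each of the 8 genes, by distance from the annotated start of the gene along its strand (bp). Each point is a peak, its area grows with fold enrichment, and the 9 rows of points per gene are the lists (3 each of ZT4, ZT9 and ZT24, top to bottom). Peaks near the start recur in every list for 7 of the genes, and TCP17 has its only site 750 bp upstream.

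Of the 16 constant sites, 7 had their median summit within 300 bp of the transcription start site (TSS) of the member (43.8%), 1 in each member except TCP17. Of all sites present in 9 lists, 47.1% lay that close to a protein-coding TSS. The summit was upstream of the start in TCP3 (275 bp), TCP2 (32 bp), TCP24 (25 bp) and TCP10 (23 bp). It was downstream, within the 5′ UTR, in TCP5 (102 bp), TCP13 (153 bp) and TCP4 (176 bp). The TCP3 summit also lies in an exon of AT1G53233, a noncoding RNA gene transcribed from the opposite strand. Single lists placed these summits close to each other, within 48 bp in TCP3, 59 bp in TCP5, 88 bp in TCP4, 89 bp in TCP24, 108 bp in TCP10, 163 bp in TCP13 and 188 bp in TCP2.

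The strongest member sites were those at the starts of TCP3, TCP5 and TCP13. At TCP3 (chr1:19851617-19852605) the fold enrichment was 6.84, 6.09 and 6.68 (ZT4), 7.54, 7.44 and 5.52 (ZT9) and 7.31, 6.59 and 6.14 (ZT24). These values overlapped between the time points and stood at a mean percentile of 97.2 ± 1.18 (SD, n = 9 lists). At TCP5 (chr5:24536631-24537654) the fold enrichment was 6.88, 6.13 and 6.11 (ZT4), 5.88, 5.58 and 6.16 (ZT9) and 7.40, 6.74 and 6.67 (ZT24), with a mean percentile of 96.5 ± 1.44. At TCP13 (chr3:390324-391336) it was 5.87, 4.98 and 6.17 (ZT4), 5.86, 5.21 and 4.44 (ZT9) and 6.59, 6.59 and 5.42 (ZT24), with a mean percentile of 93.9 ± 1.86. None of these 3 sites passed the test of time described below.

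TCP10 and TCP2 followed, with a strong site each. At the start of TCP10 (chr2:13222076-13223098) the fold enrichment was 5.12, 3.35 and 5.07 (ZT4), 5.83, 4.97 and 4.05 (ZT9) and 5.29, 4.55 and 3.38 (ZT24), and the mean percentile was 85.3 ± 8.71. The strongest site of TCP2 lay at the other end of the gene, 520 bp past its annotated end (chr4:10161500-10162935), with fold enrichments of 4.08 to 5.26 and a mean percentile of 87.5 ± 2.83. At the start of TCP2 (chr4:10165350-10165971) the fold enrichment was lower, 1.89 to 3.49. Both TCP10 and TCP2 are cleaved by miR319.

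TCP4, the member best known for control of leaf shape, had several moderate sites in place of a strong one. The site 1117 bp upstream (chr3:5059805-5061351) had fold enrichments of 2.49 to 4.08 and a mean percentile of 65.6 ± 12.3. The site in the 5′ UTR (chr3:5061571-5062158) had fold enrichments of 2.58 to 4.37 and a mean percentile of 59.5 ± 15.2. Past the end of TCP4, in the 3′ UTR of the neighbour AT3G15040, a wide site (chr3:5064225-5065151) had fold enrichments of 2.30 to 2.90. Its summits were spread over 413 bp and formed 2 clusters of 5 lists each. The cluster nearer TCP4 held 3 lists of ZT4, 1 of ZT9 and 1 of ZT24, the other 0 of ZT4, 2 of ZT9 and 3 of ZT24. At this site the test of time described below therefore compared different summits. The called peaks of all 3 ZT4 lists also covered the position of the farther cluster, so that position was not without ZT4 peaks. A separate, weaker summit 541 bp upstream was listed in 6 lists within the site 1117 bp upstream.

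The remaining constant sites lay farther out. TCP3 had one 1716 bp upstream (chr1:19853058-19853637, mean percentile 57.1 ± 21.1) and one whose summits fell 1206 bp past the gene end (chr1:19848243-19849929, mean percentile 78.6 ± 8.03). At the first, fold enrichment was 3.58, 2.37 and 2.69 (ZT4), 3.63, 2.68 and 2.01 (ZT9) and 3.82, 3.76 and 3.82 (ZT24), highest at ZT24. Its local background averaged 22.4, 26.4 and 17.3 fragments in the same order. It did not pass the test of time described below (limma F test, adjusted p = 0.125). The second entered the TCP3 window only with its flank, and within the window it held a separate, weaker summit near 2143 bp from the start in 6 lists. TCP5 had its second site 800 bp upstream (chr5:24537759-24538348, mean percentile 80.1 ± 8.82). A site 1115 bp past the end of TCP13 (chr3:393499-394276, mean percentile 59.7 ± 23.6) lay 162 bp upstream of the start of AT3G02160.

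The site upstream of TCP13 needs its own description. Overlapping peaks chained into 1 site of 3775 bp (chr3:386356-390130), whose highest summit lay 3854 bp upstream, in the 5′ UTR of the neighbouring gene TMAC2 and outside the TCP13 window. Its mean percentile of 89.6 ± 4.59 therefore belongs to the TMAC2 peak. The part inside the window was a separate run of summits around 1404 bp upstream of TCP13, present in all 9 lists. There the fold enrichment was 3.10, 2.80 and 3.20 (ZT4), 3.07, 2.25 and 2.09 (ZT9) and 3.52, 3.08 and 3.36 (ZT24), and the mean percentile was 53.3 ± 17.0. In the 3 ZT9 lists the stretch was split, with a separate summit near 1961 bp upstream of TCP13 at fold enrichments of 2.15, 1.80 and 2.37. That position also lay inside called peaks in 2 of 3 ZT4 lists and 3 of 3 ZT24 lists, so it was not particular to ZT9.

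Among the 16 constant sites the mean percentile ran from 42.5 (start of TCP24) to 97.2 (TCP3), with a median of 72.1. This includes 3 sites with summits outside the member windows, the TMAC2 peak among them. Over the 13 constant sites with their summit in a window the median was 65.6, against 64.9 over all sites present in 9 lists. With the summits 1404 bp upstream of TCP13 in place of the TMAC2 peak, the median over 16 sites was 62.7. The 6 sites missing from some lists were weak. The strongest of them, 1828 bp upstream of TCP2 (chr4:10166987-10167600), was listed in 3 of 3 replicates at ZT4 with fold enrichments of 3.33, 2.09 and 2.65, in 2 of 3 at ZT9 with 2.03 and 1.83, and in 2 of 3 at ZT24 with 3.24 and 2.54. A site in the 5′ UTR of TCP2, 999 bp from its start, and a site 236 bp past the end of TCP10 were each listed 4 times, with fold enrichments of 1.97 to 2.26 at TCP2 and 1.63 to 2.12 at TCP10. The site past the end of TCP5 appeared in 2 lists, and a site 1995 bp upstream of TCP5 and one just past the end of TCP13 in 1 list each.

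**Figure D2:**
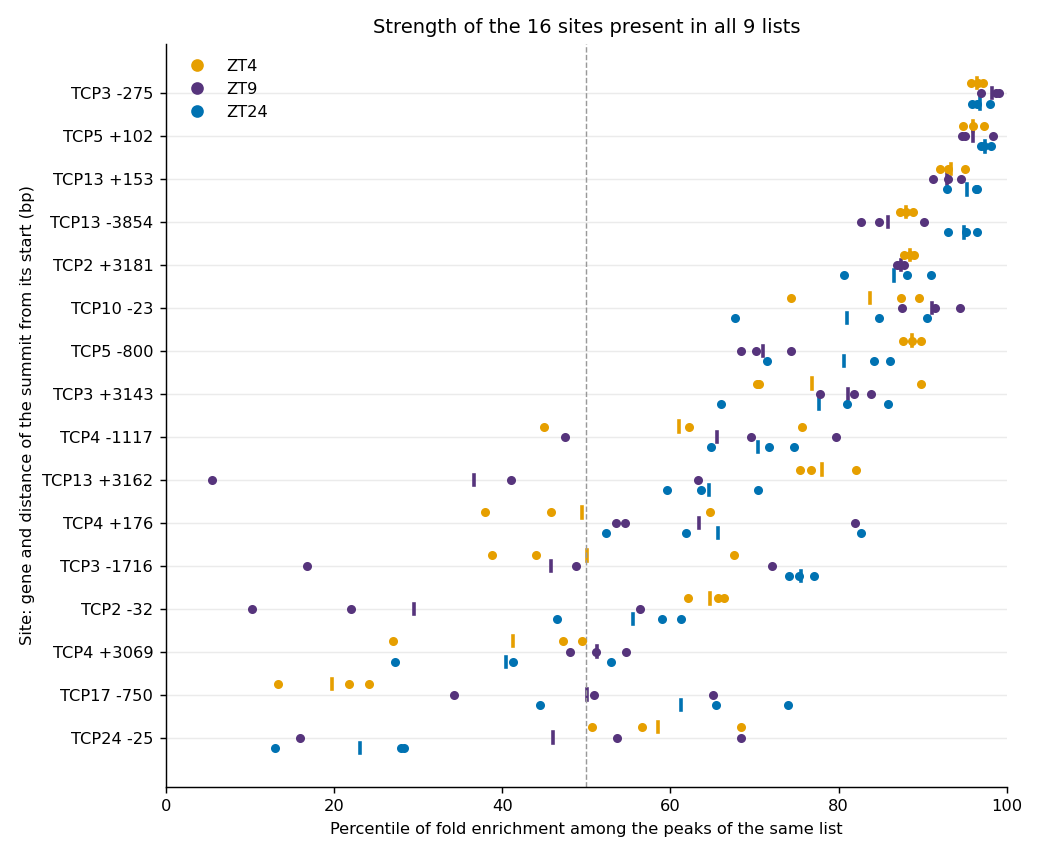
Percentile of fold enrichment of each of the 16 constant sites among the peaks of its list (x axis, 0 to 100), with a point per list and a bar at the mean of each time point. The sites at the starts of TCP3, TCP5 and TCP13 sit above 90 in every list, while those of TCP17 and TCP24 spread from 12.9 to 74.0. The site past the end of TCP13 spreads wider still, from 5.51 to 82.1.

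To ask whether binding at the members changed through the short day, fold enrichments were replaced by normal scores of their ranks within a list, and limma tested the 3 time points at the 13251 sites present in all lists. Of the 16 member sites 1 passed (Benjamini-Hochberg adjusted p under 0.05), where 14.6% of all sites did, and 7 of 16 had an unadjusted p under 0.05, where 34.8% of all sites did. The site that passed was the only site of TCP17 (chr5:2583454-2583809). Its fold enrichment was 2.07, 2.13 and 2.26 (ZT4), 3.33, 2.74 and 2.27 (ZT9) and 3.74, 2.67 and 3.29 (ZT24). All ZT9 and ZT24 replicates were above all ZT4 replicates, the closest being 2.27 against 2.26. Its percentile averaged 19.8 ± 5.73 (ZT4), 50.1 ± 15.4 (ZT9) and 61.3 ± 15.2 (ZT24), with the SD over 3 replicates (limma F test, adjusted p = 0.0299).

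Between pairs of time points, the ranked fold enrichment at TCP17 was higher at ZT24 than at ZT4 by 1.42 ± 0.33 normal-score units (SE, limma, adjusted p = 0.0369), where 2.38% of all sites were called in that direction and no other member site was. No member site was called lower at ZT24 than at ZT4, where 2.62% of all sites were. The difference of ZT9 minus ZT4 at TCP17, 1.15 ± 0.33 units, did not pass (limma, adjusted p = 0.0527), nor did ZT24 minus ZT9, 0.27 ± 0.33 units (limma, adjusted p = 0.623). The call by the F test was lost when ZT4 replicate 1, 2 or 3 was left out (limma, adjusted p = 0.0927, 0.0507 and 0.0554), without ZT9 replicate 2 (0.0517) and without ZT24 replicate 1 or 3 (0.0624 and 0.0612). The call of ZT24 minus ZT4 was lost in 5 of these cases, with adjusted p-values of 0.0668 to 0.107 (limma).

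The background under the TCP17 peak moved with the time points as well. The local background was 23.6, 22.9 and 19.3 fragments (ZT4), 17.0, 18.7 and 19.3 (ZT9) and 16.9, 16.3 and 13.6 (ZT24). The ChIP pileup at the summit was 50, 50 and 45 fragments (ZT4), 59, 53 and 45 (ZT9) and 66, 45 and 47 (ZT24), so the pileups overlapped between the time points while the background at ZT24 was lower than at ZT4 in all replicates. Ranked by pileup alone, the TCP17 site did not pass (limma, adjusted p = 0.911), and 0.143% of all sites did. Ranked by −log10 p it did not pass either (limma, adjusted p = 0.147, with 1.85% of all sites called).

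The background was shared within a time point. Over the 13251 sites, the local background relative to the lowest in its list correlated at r of 0.740 to 0.764 between the 9 pairs of lists from the same time point, and at 0.153 to 0.215 between the 27 pairs from different time points. These are descriptions across sites, which share neighbouring sequence and are not independent. At TCP17 this relative background was 1.45 to 1.58 (ZT4), 1.27 to 1.29 (ZT9) and close to 1.12 (ZT24). With 1 input library per time point, a change in SOB3-GFP binding by fold enrichment and a difference between the inputs cannot be told apart.

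The rank of fold enrichment was called lower at ZT9 than at ZT4 at 3 member sites (limma, 3 of 16, where 4.23% of all sites were called lower), and higher at none (4.09% of all sites called higher). None of the 3 passed the F test over the time points (limma, adjusted p = 0.0604 to 0.0697), and for them too a change in binding and a difference between the inputs cannot be told apart. The first was 800 bp upstream of TCP5, with fold enrichments of 3.55, 3.55 and 3.01 at ZT9 against 5.14, 4.51 and 4.97 at ZT4, which did not overlap. The difference was −0.74 ± 0.21 normal-score units (SE, limma, adjusted p = 0.0497). At ZT24 the values were 4.72, 4.48 and 3.55, between the other time points. The F test at this site passed among peaks with a −log10 q of at least 10 (limma, adjusted p = 0.0151) or of at least 5 (0.0443). It also passed with quantile-normalized log2 fold enrichment (limma, adjusted p = 0.0346). It did not pass when ranked by −log10 p (0.200) or by pileup (0.337), or with a replicate block (0.103).

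The second was the start of TCP2, with fold enrichments of 3.02, 2.18 and 1.89 at ZT9 against 3.49, 2.89 and 3.37 at ZT4, a difference of −1.04 ± 0.29 units (limma, adjusted p = 0.0480). The third was the site past the end of TCP13, near AT3G02160, with 2.63, 3.09 and 1.78 at ZT9 against 4.01, 3.48 and 4.28 at ZT4, a difference of −1.37 ± 0.38 units (limma, adjusted p = 0.0488). Values at TCP2 overlapped between ZT9 and ZT4, and those near TCP13 did not. These 3 calls lay close to the threshold, and each was lost in 8 of the 9 fits that left out 1 list, with adjusted p-values of 0.0611 to 0.141 (limma). The exceptions were the fits without ZT24 replicate 3 at TCP5, without ZT9 replicate 1 at TCP2 and without ZT9 replicate 2 near TCP13. In the last 2 of these fits the F test passed too (limma, adjusted p = 0.0189 at TCP2 and 0.0284 near TCP13).

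The background moved in the other direction at these 3 sites. Relative to the lowest background of the list it averaged 1.62 ± 0.0421 at ZT9 and 1.26 ± 0.0901 at ZT4 800 bp upstream of TCP5, and 1.70 ± 0.102 at ZT9 and 1.14 ± 0.0380 at ZT4 past the end of TCP13 (SD, n = 3 each). At the start of TCP2 it was 1.32 to 1.65 at ZT9 and 1.24 to 1.27 at ZT4. Ranked by pileup alone, none of the 3 differences passed (limma, adjusted p = 0.663 at TCP5, 0.295 at TCP2 and 0.759 past TCP13).

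**Figure D3:**
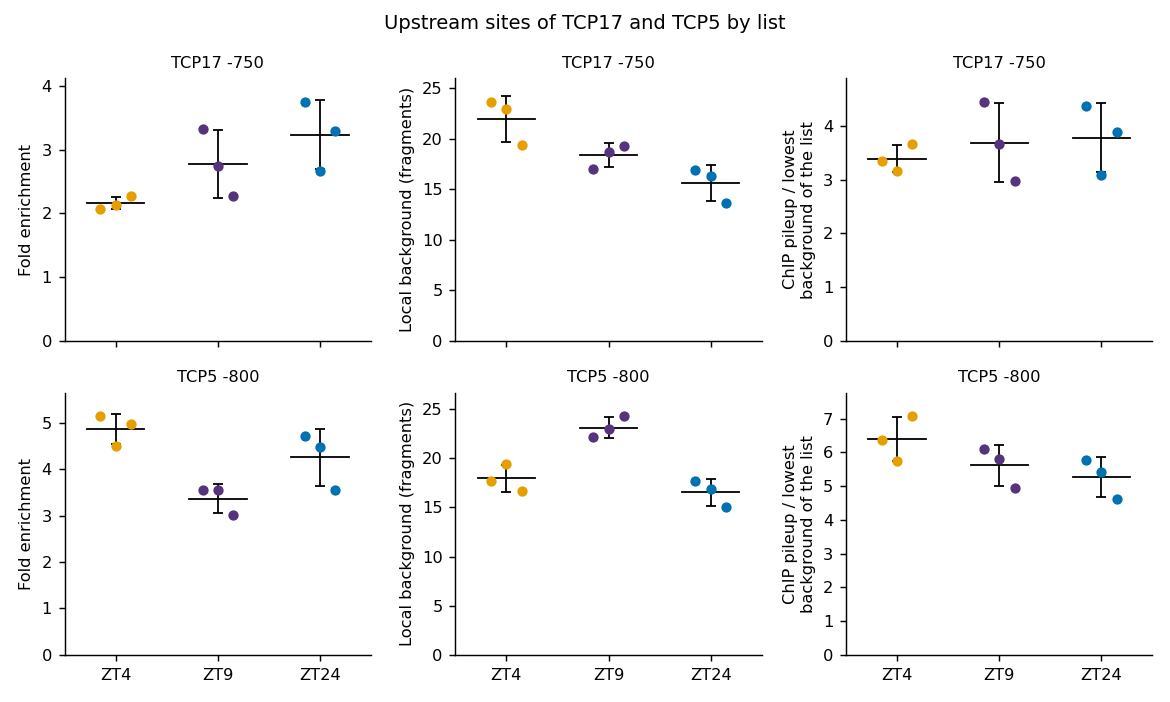
Fold enrichment, local background (fragments) and ChIP pileup relative to the lowest background of the list at the sites 750 bp upstream of TCP17 (top) and 800 bp upstream of TCP5 (bottom), with a point per replicate and the mean ± SD at ZT4, ZT9 and ZT24. Fold enrichment at TCP17 is lowest at ZT4, where its background is highest, and fold enrichment at TCP5 is lowest at ZT9, where its background is highest.

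TCP24 showed the opposite order to TCP17. Its fold enrichment at the start (chr1:10630456-10630834) was 3.11, 3.10 and 2.85 (ZT4), 2.94, 3.28 and 2.00 (ZT9) and 2.30, 2.33 and 2.11 (ZT24), with no overlap between ZT24 and ZT4. The F test did not pass (limma, adjusted p = 0.0674), and neither did ZT24 minus ZT4, −1.16 ± 0.33 units (limma, adjusted p = 0.0694). Without ZT9 replicate 3 the F test passed (limma, adjusted p = 0.0312). The background was 29.9, 26.1 and 22.3 fragments at ZT24, against 18.3, 19.7 and 16.2 at ZT4. From ZT24 minus ZT9 no member site was called in either direction, where 4.63% of all sites were called higher and 4.35% lower. The adjusted p of the F test at the 3 strongest sites was 0.315 at TCP3, 0.711 at TCP5 and 0.605 at TCP13.

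In 300 bp around the median summit, 5 of the 16 constant sites held a TCP-like word, 6 a PIF-like word and 11 an AT-rich match, against 38.0%, 38.7% and 56.0% of all sites present in 9 lists. Within 300 bp of the start of the member, 0 of 7 sites held a TCP-like word, 3 of 7 a PIF-like word and 6 of 7 an AT-rich match. Of all constant sites that close to a protein-coding TSS, 35.5% held a TCP-like word, 35.7% a PIF-like word and 55.6% an AT-rich match. Among the 9 member sites farther out, 5 held a TCP-like word, 3 a PIF-like word and 5 an AT-rich match. No share was computed over all constant sites that far from a TSS. Over all constant sites, near and far, the shares were the 38.0%, 38.7% and 56.0% given above. The 9 far member sites include 3 with summits outside the member windows. Of the 6 with summits inside, 3 held a TCP-like word, 2 a PIF-like word and 5 an AT-rich match. The difference between near and far sites was not tested. These motifs were chosen because the study found them enriched in these same samples, and the counts of sites are small.

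In the TCP3 sequence shown above, the strongest member site, 2 overlapping AT-rich matches cover the summit, at positions −8 to −1 and −3 to 4 from it along the gene strand, and another lies at 26 to 33. It also holds CACATG at −63 to −58 and no TCP-like word. The strong site at the start of TCP5 likewise had an AT-rich match over its summit, and the site at the start of TCP10 held none, with 1 PIF-like word at −41 to −36.

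When T stands before a TCP-like word with A or T in its centre, as in TGGTCCA, the word is read on both strands at the same place, so TGGNCCA was also counted as 1 motif. It occurred in 3 of the 16 constant sites, and 2 of the 16 held at least 2 copies, against 12.8% and 1.42% of all sites in 9 lists. Neither this motif nor the cut of 2 copies was planned in advance, and the difference was not tested. The 2 sites with at least 2 copies are the distal sites of TCP5 and TCP17, both members without a miR319 site. In the TCP5 sequence TGGACCA lies at −68 to −62 and TGGTCCA at −4 to 2, over the summit. In the TCP17 sequence TGGTCCA occurs at 21 to 27 and again at 104 to 110. The third site with a copy was that past the end of TCP13.

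The TCP2 sequence holds CACGTG, the G-box to which PIF proteins bind, at 11 to 16 and at 77 to 82 from the summit. The site was present in 7 of 9 lists and therefore did not enter the test of time. PIF-like words also occurred at 2 places in the site past the end of TCP2.

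**Figure D4:**
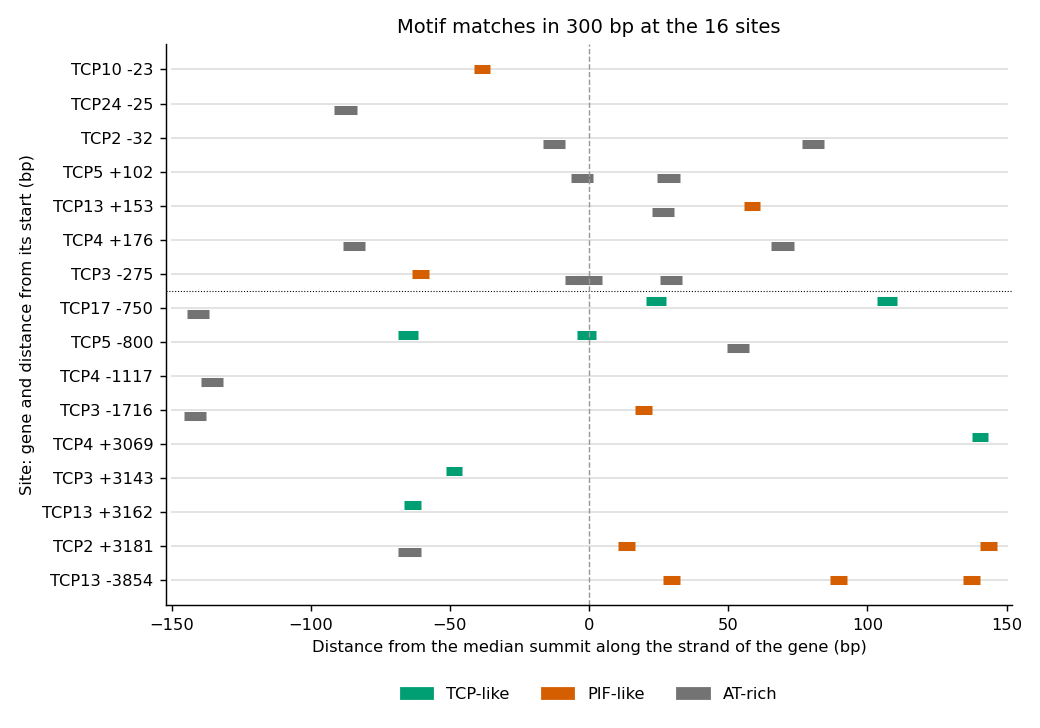
Motif matches in the 300 bp around the median summit of the 16 constant sites, by distance from the summit along the strand of the gene (bp). The 7 sites above the dotted line lie within 300 bp of the start of the member and hold no TCP-like match, and the TCP5 and TCP17 sites below it hold 2 places with a TCP-like match each.

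Most of the other TCP genes had peaks too. A peak in all 9 lists was found for 8 of 8 CIN-type genes, for 12 of 13 class I genes and for 1 of 3 genes of the CYC/TB1 type, which act on shoot branching and flower form, where 52.4% of all genes had one. TCP18 (BRANCHED1) was the CYC/TB1 gene with peaks, while TCP1 and TCP12 had none in any list. The strongest peak of a gene had a median percentile of 86.4 over the 8 CIN-type genes, 82.6 over the 12 class I genes and 71.1 over all genes with a peak in 9 lists. The window held a median of 2.83 peaks per list in CIN-type genes and 2.44 in the 13 class I genes, against 1 over all protein-coding genes. The percentile of the strongest peak can rise with that number and was not adjusted for it. Within the CIN type this percentile was 97.2 for TCP3, 96.5 for TCP5, 93.9 for TCP13, 87.5 for TCP2, 85.3 for TCP10, 70.0 for TCP4, 43.7 for TCP17 and 42.5 for TCP24. The 5 genes with a miR319 site had a median of 85.3 and the 3 without one a median of 93.9, and both subsets held a weakly bound gene.

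Ranges over the lists often overlapped between neighbours in this order. TCP3 and TCP5 overlapped over the lists (95.8 to 99.0 and 94.6 to 98.4), and TCP13 (91.2 to 96.5) overlapped with both, as did TCP2 and TCP10 (80.6 to 91.0 and 67.7 to 94.4), and TCP17 and TCP24 (13.3 to 74.0 and 12.9 to 68.4). The range of TCP4 (53.5 to 82.7) overlapped with those of TCP10, TCP2, TCP17 and TCP24. Within each list, however, the strongest peaks of TCP10 and TCP2 ranked above that of TCP4.

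**Figure D5:**
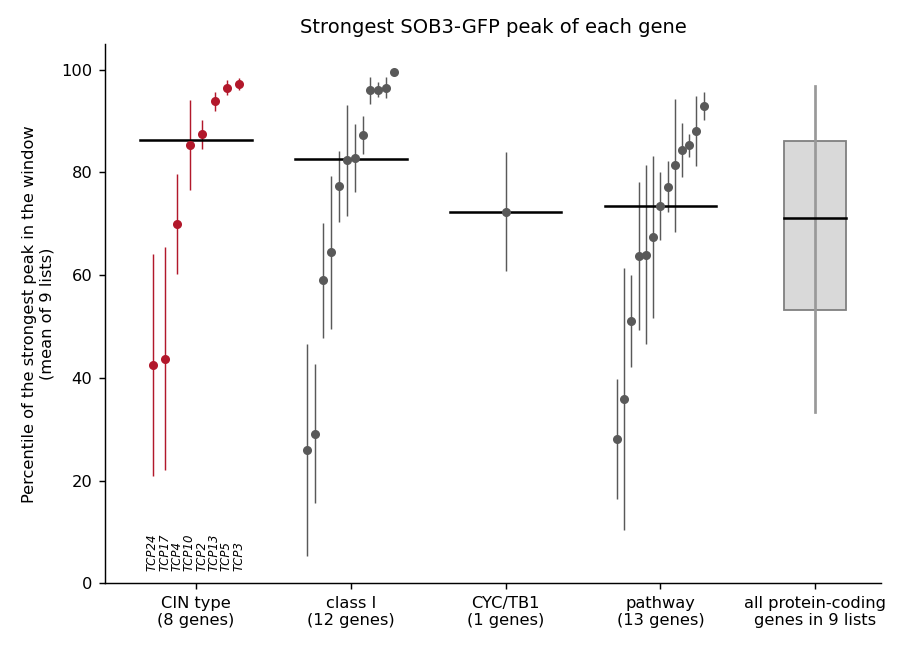
Percentile of the strongest peak in the window of each gene (mean ± SD of 9 lists) for CIN-type, class I and CYC/TB1-type TCP genes and for genes of the CIN-TCP pathway, with a line at the median, beside all protein-coding genes with a peak in all 9 lists (box, quartiles; line, 5th to 95th percentile of genes). The CIN-type median is 86.4 and that of all genes 71.1, without adjustment for the number of peaks per window, and TCP17 and TCP24 lie below the box.

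Around the CIN-type genes, 16 genes of the same pathway were examined: the miR319 precursors, partners of the proteins and genes they control. Of these, 13 had a peak in all 9 lists, where 52.4% of all protein-coding genes did. The windows of the 16 genes held a median of 2.17 peaks per list, against 1 over all protein-coding genes. The strongest peak had a median percentile of 73.4 over the 13 genes, against 71.1 over all protein-coding genes with a peak in 9 lists. The highest were MIR396B (92.9 ± 2.66), which encodes a microRNA against GRF growth factors, LOX2 (88.1 ± 6.89), a jasmonate biosynthesis enzyme, KRP1 (85.3 ± 2.22), a cell cycle inhibitor, AS1 (84.3 ± 5.25), a leaf polarity regulator, and CUC3 (81.4 ± 12.9), an organ boundary gene. Of the miR319 precursors, MIR319C had a peak in all 9 lists, MIR319B in 3 and MIR319A in none. YUC5 was bound in all 9 lists with a low percentile of 28.1 ± 11.6. Of the sites present in all lists, the F test called 2 of 18 at class I genes, 0 of 1 at CYC/TB1-type genes and 2 of 19 at pathway genes, against 14.6% of all sites.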

How the data were processed

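Peak lists of SOB3-GFP ChIP-seq from whole Arabidopsis seedlings were analysed, 9 lists from 3 time points with 3 replicates each. The authors converted reads with bcl2fastq, mapped them to TAIR10 with Bowtie keeping unique matches, and called peaks per replicate against input with MACS2, whose versions are not given in the sources used here, nor which input served which list. The deposited fold enrichment is a ratio of pileup to local background, and the deposited −log10 p-values and q-values come from the same caller. The deposited summit offset gives the position of the highest point. Unique mapping leaves repeats without reads.

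Pileup and background were solved from fold enrichment and −log10 p. Whole-number pileups fitted within 0.001 for 100% of peaks in each list. The lowest background of a list is its genome-wide mean. Nuclear peaks of all lists were merged into sites with at least 1 bp of overlap, and the strongest peak per list stood for a site. Gene positions came from RefSeq TAIR10.1, whose nuclear chromosomes are those of TAIR10, and 0 peaks ran past a chromosome end.

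At sites present in 9 lists, limma 3.58.1 (R 4.3.3) tested normal scores of within-list ranks with a moderated F test and 3 contrasts, adjusted by Benjamini-Hochberg over all 13251 sites at 0.05. Tested on simulated data for this comparison, 13251 sites of which a small part was shifted by 1, 2 or 3 units at ZT9 only, the fit found 23.9%, 77.6% and 93.9% of shifted sites. That part was smaller than the share of sites called in the data, so these rates need not hold there. Tables were handled in Python 3.11.15 with pandas 2.3.3. Alternatives ranked by −log10 p or by pileup, used log2 fold enrichment, a replicate block, stricter peaks, other windows, or left out a list each. The nearest start site as gene rule and clustering of summits within 100 bp were chosen after seeing the data. The motif TGGNCCA was not among those planned. All 8 members are named, all their sites are described, and genes of the other lists are given as counts with the 5 strongest of the pathway. The members, gene lists and motifs were chosen with earlier results of these data known. Replicates are biological by the methods of the study. Sites and genes are not replicates, and no list-wide p is given. Input files were not used here.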

Additional observations from a re-analysis of the deposited data

How the results depend on the processing

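The number of sites called by the limma F test, 1930 of 13251, was 3051 with quantile-normalized log2 fold enrichment, 245 when ranked by −log10 p, 19 when ranked by recovered pileup, and 959 to 1257 when a list was left out. The member sites called, 1 of 16, were 4, 0 and 0 under the first 3 of these and 0 to 2 without a list. With only peaks of −log10 q 10 or more kept, 2 of 8 member sites were called, beside 1355 of 5375 sites over the genome. The member share thus did not stand out from that of all sites. At that threshold the members with a peak in all lists were 5 and the member sites present in all lists 8, of which 2 held a TCP-like word and 5 an AT-rich match. The shares of all genes with a peak and of all sites with a motif were not computed at that threshold. In 100 bp at the summit, 2 of 16 sites held a TCP-like word, 4 a PIF-like word and 4 an AT-rich match. Of all sites present in 9 lists, 21.4%, 17.9% and 30.9% did.

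Same-numbered replicates of different time points did not deviate together (r of −0.0453 to 0.0577 over 9 pairs, against −0.107 to 0.0792 for other pairs). These values gave no sign that the numbers pair them, but with 3 replicates per time point they cannot exclude it. With the replicate block, 1400 sites and 1 member site were called by limma. TCP17 then had an adjusted p of 0.0536 and TCP24 one of 0.0454. With summits clustered within 100 bp, chosen after seeing the data, 1996 of 11021 clusters and 1 of 14 member clusters were called, which was TCP17. With the nearest start site as gene rule, also chosen after seeing the data, all 8 members kept a peak in 9 lists. At single member sites, tests under the alternatives stayed on their side of the threshold in 221 cases, lost a call in 50 and gained one in 10. All 50 losses fell on the tests called in the main fit: 1 F test, 3 of ZT9 minus ZT4 and 1 of ZT24 minus ZT4. The 221 cases include tests that were not called and stayed so, and thus do not measure how stable the calls were. No called difference changed its direction. The lists give no read totals, so depth limits weak peaks to an unknown degree.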

Other observations

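Away from the member genes, the sites whose normal scores over the 9 lists were most like those of the TCP17 site were near AT2G47390 (46 bp downstream of its start, Pearson r = 0.970), EDA34 (896 bp upstream, r = 0.956) and AT1G31910 (1740 bp downstream, r = 0.947), out of 13235 sites compared. The 9 lists fall into 3 time points, so these values describe a shared order of lists and carry no test.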
